A study of Mus musculus with 24 samples.

Results

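The 35 genes described here are those that define a white adipocyte and its fat store: the fat cell's secreted proteins, the transcription factors of its differentiation, and the proteins that take up, build, hold and release triglyceride. They were chosen by name as rows of the deposited expression table, and 35 of 35 were found among its 55487 genes. Each also passed the filter on low values (at least 1 TPM in at least 3 samples; TPM, the length-normalised transcript measure, is a share of all the RNA measured in a library). The table held 24 mammary gland libraries, each from a different numbered mouse, in 8 groups of 3. Every mouse carried an MMTV-rtTA activator, in which the mouse mammary tumour virus promoter drives the tetracycline-dependent rtTA, with either a tet-op-Esr1 transgene (the oestrogen receptor alpha gene) or a tet-op-CYP19A1 transgene (aromatase, the enzyme that makes oestrogens from androgens). Each line was sampled at an age of 18 months, when the transgene had been induced for 6 months, and at 20 months, when it had been induced for 8. The 20-month mice had no drug in their labels, or had been implanted at 18 months with tamoxifen (25 mg released over 60 days) or letrozole (2.5 mg released over 60 days), an exposure of 2 months. Tamoxifen is a modulator of oestrogen receptors and letrozole an inhibitor of aromatase. The 20-month groups without drug are called untreated; their descriptions bear an unexplained tag, PLA, that is absent at 18 months. No mouse was without a transgene, and the MMTV promoter is used to drive expression in mammary epithelium, so the adipocytes measured here were not the intended site of either transgene.

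White adipocytes fill most of the volume of a mouse mammary fat pad, and the epithelial ducts grow within them. An adipocyte takes up fatty acids freed from lipoproteins by lipoprotein lipase, takes up glucose through the transporter GLUT4, and joins activated fatty acids to glycerol phosphate in a chain of acyltransferase and phosphatase steps that ends in triglyceride. The triglyceride sits in a single large droplet coated by perilipins and CIDEC, and is released by a sequence of lipases when catecholamines act on the cell. PPARγ and the C/EBP proteins switch this programme on during differentiation and keep it on. The aim stated for the series was to compare the effects of the Esr1 and CYP19A1 transgenes on the ageing gland, and of tamoxifen and letrozole in each.

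Several libraries stood apart from the rest. The Esr1 untreated replicate 2 library had 31.2% of its TPM in ribosomal RNA gene models, against at most 3.61% in the other 23, and was the lowest of all 24 in 26 of the 35 genes. Its shares of Rn7s RNA (24.3%) and mitochondrial RNA (9.82%) were the lowest of the 24. With abundant RNAs and muscle markers removed, 34.1% of its TPM was left, against 34.7% in Esr1 tamoxifen replicate 1 and 34.9% in CYP19A1 letrozole replicate 1. The part of ribosomal RNA in its low values was not tested. Summed levels of 12 skeletal muscle markers, from tissue that can adhere to a dissected gland, were 167 TPM in Esr1 18-month replicate 1 and 23.1 TPM in CYP19A1 18-month replicate 3, against 4125 to 31651 TPM elsewhere; these libraries were the highest in 7 and 13 of the 35 genes. CYP19A1 letrozole replicate 3 was the lowest in 3. Where a fit below is said to be without the 3 libraries that stood apart, these are Esr1 untreated replicate 2, Esr1 18-month replicate 1 and CYP19A1 18-month replicate 3. Esr1 RNA itself did not separate the lines: it was 6.98 to 17.4 TPM in the 12 Esr1 libraries and 12.2 to 19.2 TPM in the 12 CYP19A1 libraries (log2 difference 0.07, limma adjusted p = 0.81). The mouse Cyp19a1 row, which is not the human-named transgene, was at most 0.27 TPM, so the lines are named here as labelled. In whole glands, fewer adipocytes and less RNA per adipocyte cannot be told apart. The labels give no sequencing run or date, so a run that differed between the lines or ages cannot be told apart from them. Values were compared as log2(TPM + 1) with limma over 19325 genes, and calls were made where the p adjusted by Benjamini-Hochberg was under 0.05; errors beside log2 differences are standard errors of that fit.

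Adipocyte RNA was abundant in every library. The summed level of the 35 genes ran from 2816 TPM in Esr1 untreated replicate 2 to 14692 TPM in CYP19A1 18-month replicate 3. The highest mean level was that of Fabp4, the fatty acid carrier of the adipocyte cytosol, at 2195 TPM, followed by Cfd, the secreted serine protease adipsin, at 1095 TPM. Cd36, a fatty acid receptor of the cell surface, Lpl, lipoprotein lipase, and Adipoq, the hormone adiponectin, lay close together at 587, 574 and 564 TPM. The lowest was Cebpb, an early factor of differentiation, at 10.6 TPM. Among the transcription factors, Pparg and Cebpa averaged 63.2 and 70.6 TPM.

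**Figure D1:**
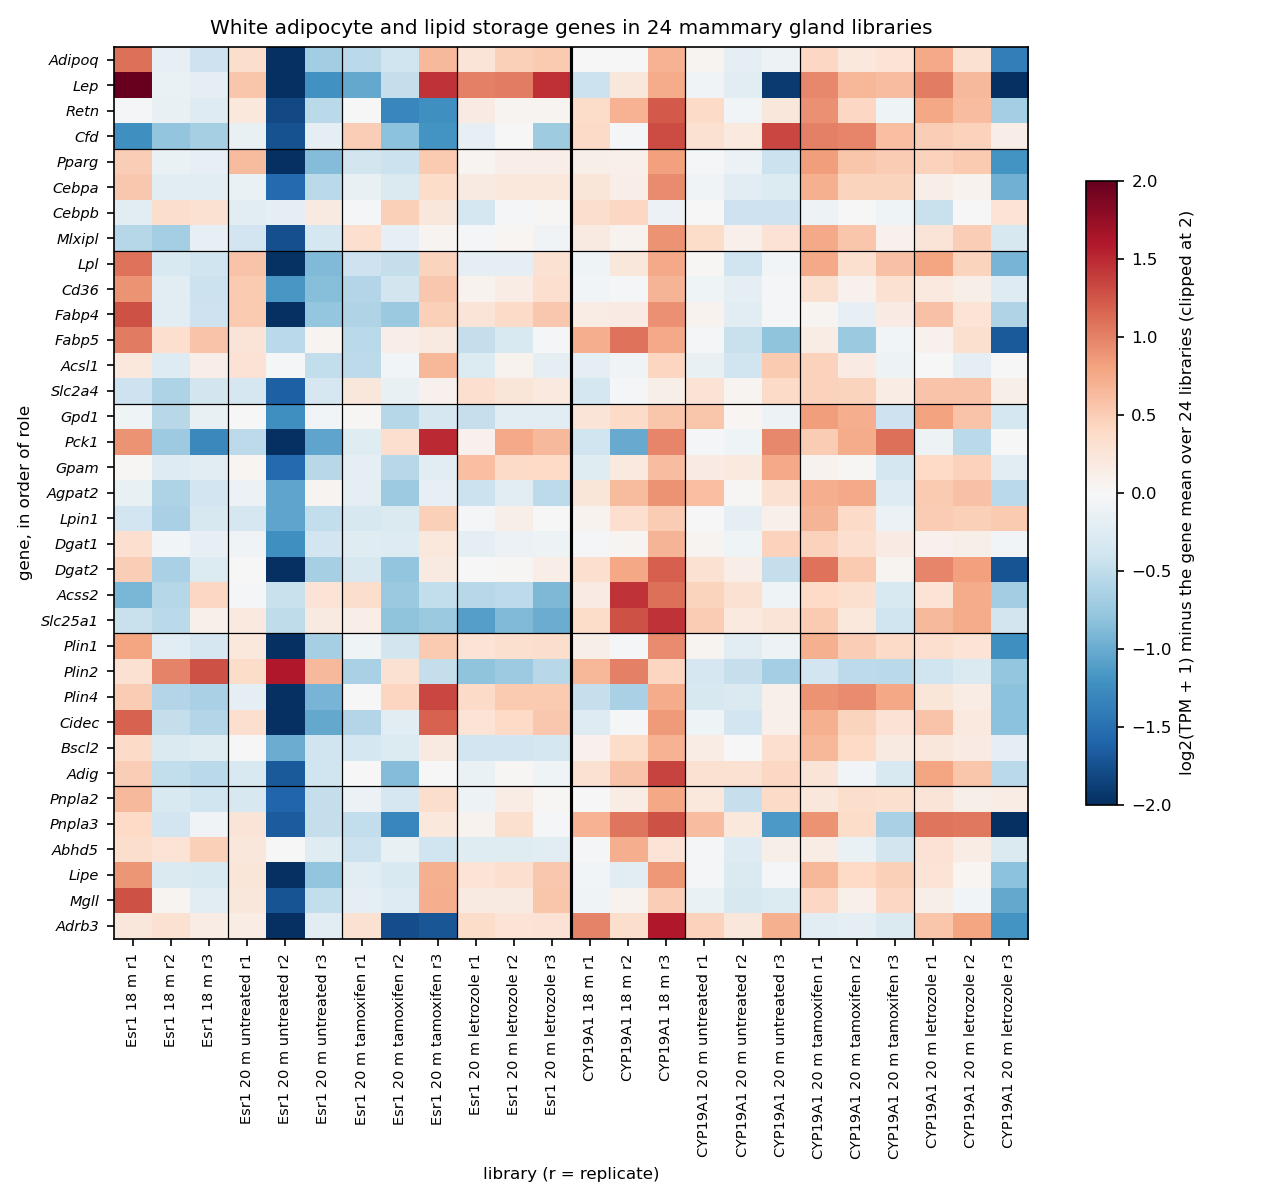
Levels of the 35 genes (rows, grouped by role) in the 24 libraries (columns, 3 per group; the thick line divides the lines), as log2(TPM + 1) minus the gene's mean over the 24 libraries, with the colour scale ending at 2 on either side. Most genes rise and fall together from library to library, with Esr1 untreated replicate 2 the lowest column and also the one where Plin2 is highest.

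Most of the genes followed each other across libraries. The correlation of a gene's log2 level with the mean of the other 34, over the 24 libraries and given as a description of libraries that share groups and composition, was 0.94 for Dgat2, which adds the last acyl chain of triglyceride, 0.93 for Plin1, the main perilipin of the adipocyte droplet, and 0.92 for Pparg and Cebpa. It was lower for Acsl1 (0.37), which activates fatty acids, and for Abhd5 (0.30), the co-activator of the first lipase. Among the genes called between the lines below, it was also lower for Acss2 (0.41), Slc25a1 (0.47) and Cfd (0.55). It was higher for others of them, such as Adig (0.88) and Bscl2 (0.87). Only Cebpb (-0.19) and Plin2 (-0.36), the perilipin found on droplets of many cell types including milk-secreting epithelium, were negative. Esr1 untreated replicate 2 was the highest library in Plin2 and the lowest in 26 of the 35 genes. The correlation of Plin2 without that library is not given, so its negative sign may rest on it. Over all genes with a mean of at least 5 TPM that are no members, the 10 whose log2 levels were most like the mean standardised profile of the 35 were Pank3, Gstz1, Lama4, Lonp2, Ptprd, Chpt1, Scp2, Dolk, Ptp4a1 and Cox19, with r from 0.974 to 0.951 over the 24 libraries. Without the 2 libraries farthest from the median of that profile, Esr1 untreated replicate 2 and CYP19A1 18-month replicate 3, r was 0.947 for Pank3, a pantothenate kinase of coenzyme A synthesis, and 0.881 for Cox19.

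The lines differed in part of the set. Averaged over the 4 conditions, 11 of the 35 genes were higher in the CYP19A1 line and 0 were lower, while 3.96% of all genes tested were higher and 3.31% lower (7.27% in either direction). An unadjusted p under 0.05 was found for 17 of the 35. The share of all genes at that unadjusted cut is not given here or below, so no excess is read from such counts. The median log2 difference of the 35 was 0.367 against 0.002 over all genes tested. The 35 were chosen with earlier results of these data known, so these contrasts with all genes are a description and not a test. By role the 11 were 5 of 9 genes of triglyceride synthesis and its precursors, 2 of 4 secreted proteins, 2 of 6 droplet proteins, 1 of 4 transcription factors, 1 of 6 uptake genes and 0 of 6 lipolysis genes. Adipoq, Fabp4 and Plin1, often used to mark an adipocyte, did not pass: the log2 difference was 0.17 ± 0.28 for Adipoq (limma adjusted p = 0.82), 0.22 ± 0.25 for Fabp4 (0.73) and 0.29 ± 0.26 for Plin1 (0.62). Other genes typical of adipocytes, Cfd, Retn and Adig, were among the 11 and are described below.

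The largest difference was in Cfd, whose product activates complement factor B. Cfd ran from 283 to 1333 TPM (median 590.4) in the 12 Esr1 libraries and from 919.9 to 2400.1 TPM (median 1324) in the 12 CYP19A1 libraries. At 18 months the Esr1 libraries held 407, 549 and 599 TPM and the CYP19A1 libraries 1241, 919.9 and 2342 TPM, and at 20 months without drug 854, 283 and 833 TPM stood against 1176, 1092 and 2400.1 TPM. The groups did not overlap at either age, and the averaged log2 difference was 1.19 ± 0.22 (limma adjusted p = 0.0016). Retn, the adipocyte hormone resistin, was higher by 0.80 ± 0.22 (adjusted p = 0.030), with a median of 146 TPM in the Esr1 line and 205 TPM in the CYP19A1 line, a call that was lost when any 1 of 11 of the 24 libraries was left out. Lep, the hormone leptin, whose level follows fat cell size, differed by -0.23 ± 0.52 (adjusted p = 0.88) and was the most variable member, from 7.35 to 417 TPM.

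**Figure D2:**
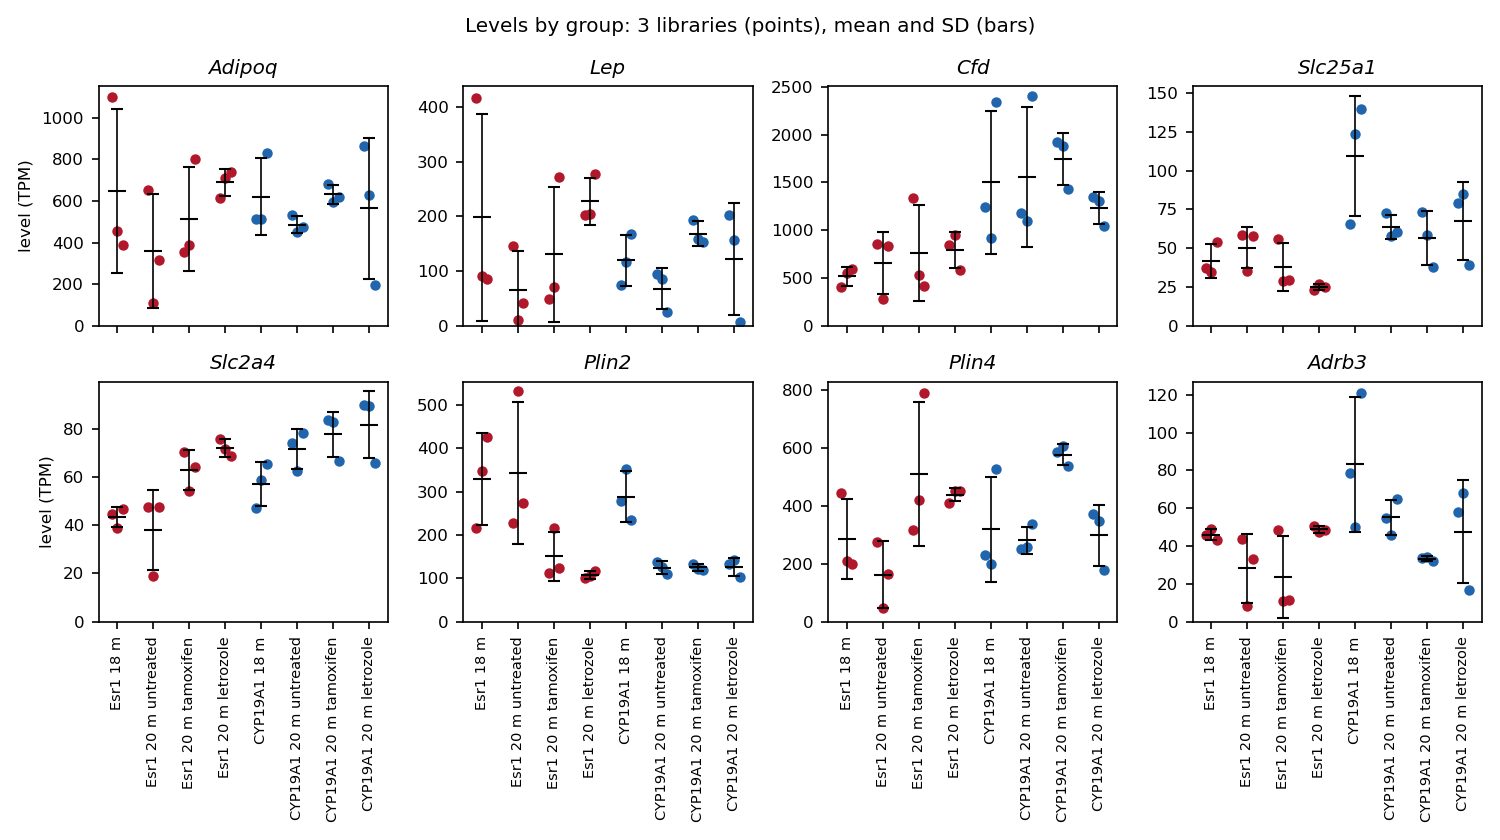
TPM of 8 genes in each of the 8 groups (Esr1 line red, CYP19A1 line blue; points are libraries, bars the mean and SD of 3; linear axes from 0). Cfd and Slc25a1 average higher in the CYP19A1 groups, with Slc25a1 overlapping between the lines in the untreated and tamoxifen groups. Lep and Adipoq overlap between the lines. Plin2 averages near 125 TPM in every 20-month CYP19A1 group, while the Esr1 untreated libraries hold 227 to 532 TPM.

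In the synthesis of triglyceride and its building blocks, Slc25a1, the mitochondrial carrier that exports citrate as a source of cytosolic acetyl-CoA, had the smallest adjusted p of the 35 genes (0.0013), with a log2 difference of 0.90 ± 0.17. It ran from 22.9 to 58.3 TPM (median 34.7) in the Esr1 line and from 38.1 to 139 TPM (median 69.2) in the CYP19A1 line. At 18 months the levels were 37.0, 34.4 and 54.0 TPM against 65.7, 123 and 139 TPM, and under letrozole 22.9, 27.0 and 24.8 TPM against 79.4, 84.7 and 39.0 TPM, with no overlap in either. Acss2, which makes acetyl-CoA from acetate in the cytosol, was at 0.68 ± 0.20 (adjusted p = 0.041), a call near the threshold that was lost without any 1 of 17 of the 24 libraries. Gpd1, which makes glycerol 3-phosphate, was higher by 0.64 ± 0.17 (0.025), with medians of 128 and 208 TPM, and lost its call without any 1 of 6.

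The steps that follow glycerol 3-phosphate were also higher in part. Agpat2, which adds the second acyl chain and whose loss in humans causes congenital lipodystrophy, ran from 36.8 to 80.4 TPM (median 62.7) in the Esr1 line and from 53.1 to 144 TPM (median 114) in the CYP19A1 line, a log2 difference of 0.75 ± 0.16 (limma adjusted p = 0.0054). Lpin1, the phosphatase that makes diacylglycerol, was higher by 0.55 ± 0.11 (0.0029). The remaining genes of the role did not pass: Gpam, the acyltransferase of the first step, gave 0.35 ± 0.15 (adjusted p = 0.20), Dgat1 0.38 ± 0.12 (0.067), Dgat2 0.67 ± 0.29 (0.22) and Pck1, the glyceroneogenic enzyme PEPCK, 0.35 ± 0.30 (0.60). All 9 estimates of this role were positive.

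Among droplet proteins, Bscl2, the endoplasmic reticulum protein seipin of droplet assembly and another lipodystrophy gene, was higher by 0.52 ± 0.12 (limma adjusted p = 0.0073), with medians of 30.5 and 44.6 TPM. Adig, the small adipocyte protein adipogenin, was at 0.66 ± 0.19 (0.043), a call lost without any 1 of 16 of the 24 libraries. Plin4, Cidec and Plin1 gave 0.22 to 0.29 with adjusted p from 0.62 to 0.72. Mlxipl, which encodes the glucose-sensing lipogenic factor ChREBP, was higher by 0.62 ± 0.15 (0.014) and ran from 5.47 to 26.6 TPM (median 18.6) and from 16.5 to 39.6 TPM (median 25.4) in the Esr1 and CYP19A1 lines. Slc2a4, which encodes GLUT4 in adipocytes and also in muscle, was higher by 0.46 ± 0.12 (0.024). In lipolysis, Pnpla2, the first triglyceride lipase, gave 0.41 ± 0.16 (adjusted p = 0.14), Lipe, the hormone-sensitive lipase, 0.21 ± 0.24 (0.72), and Mgll, the monoglyceride lipase, -0.05 ± 0.21 (0.94). Of the 11 calls between the lines, the 7 other than Retn, Acss2, Gpd1 and Adig were kept with each of the 24 libraries left out in turn.

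**Figure D3:**
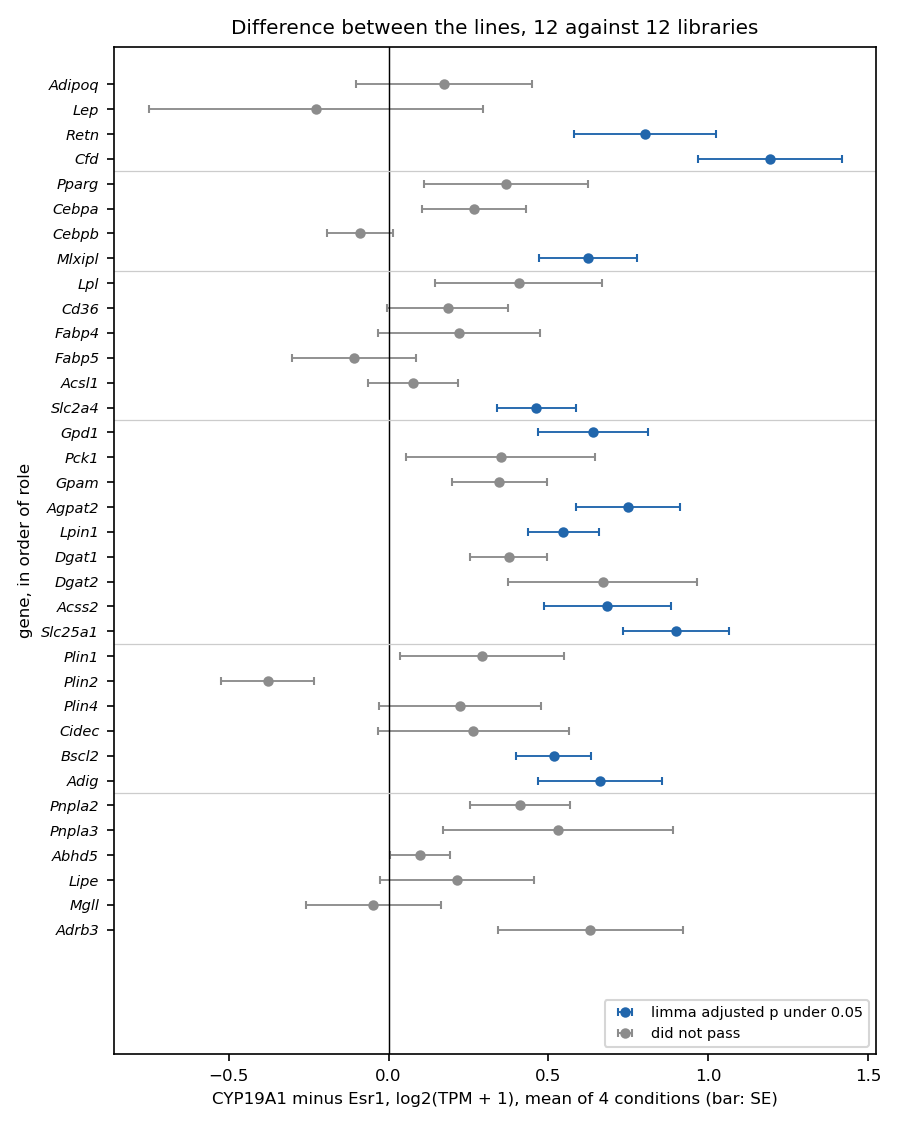
Difference between the lines for each of the 35 genes, grouped by role: the CYP19A1 minus Esr1 difference in log2(TPM + 1), averaged over 4 conditions (12 against 12 libraries), with bars for the standard error. The 11 genes past the limma threshold (blue) all lie above 0, from 0.46 for Slc2a4 to 1.19 for Cfd, and none of the 6 lipolysis genes at the bottom passed.

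Expressed relative to the mean log2 level of 4 adipocyte genes (Adipoq, Plin1, Cidec and Lipe), a scale chosen after the data were seen, 0 of the 35 genes passed by limma between the lines (4 with an unadjusted p under 0.05), where 1.27% of all genes did. Those 4 genes are among the 35 and their mean is 0 on this scale by construction, so the count is set in part by the scale. Cfd then gave 0.96 ± 0.30 (adjusted p = 0.097) and Slc25a1 0.66 ± 0.28 (0.46), and the median of all genes moved to -0.23. Some markers of other cell types also differed between the lines. Of 7 mammary epithelium markers Krt14 and Krt5 were lower in the CYP19A1 line, by 0.72 ± 0.17 and 0.69 ± 0.20 (limma adjusted p = 0.012 and 0.036). Of 5 endothelial markers Kdr and Emcn were higher, by 0.51 ± 0.11 and 0.60 ± 0.13 (0.0051 and 0.0043). The endothelial markers Pecam1, Cdh5 and Cldn5 did not pass (0.17, 0.19 and 0.51). Of 12 muscle markers 0 passed by limma, and 0 had an unadjusted p under 0.05. The part of these cell types in the differences of the adipocyte genes was not tested.

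The promoters of the 4 genes with the smallest adjusted p between the lines are shown because these were the clearest calls of that comparison; they are the 250 bases before an annotated start, from RefSeq on GRCm38.p6, which 27 of the 35 genes could be matched to. The windows of Slc25a1, Cfd and Agpat2 adjoin the start of the annotated gene, while that of Lpin1 lies inside the gene (chr12:16535669-16653903), before an internal start. Capitals mark matches, on either strand, to 4 motifs: the E-box CACGTG that ChREBP and SREBP-family factors can bind, the nuclear receptor half-site AGGTCA, the CCAAT box and the C/EBP motif TTGCNNAA.
Slc25a1 (chr16:17928220-17928469, minus strand): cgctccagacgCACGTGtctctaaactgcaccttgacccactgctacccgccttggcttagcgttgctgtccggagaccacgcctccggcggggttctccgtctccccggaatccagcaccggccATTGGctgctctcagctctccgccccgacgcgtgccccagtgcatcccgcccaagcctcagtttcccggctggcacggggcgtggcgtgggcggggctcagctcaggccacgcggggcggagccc
Cfd (chr10:79890603-79890852, plus strand): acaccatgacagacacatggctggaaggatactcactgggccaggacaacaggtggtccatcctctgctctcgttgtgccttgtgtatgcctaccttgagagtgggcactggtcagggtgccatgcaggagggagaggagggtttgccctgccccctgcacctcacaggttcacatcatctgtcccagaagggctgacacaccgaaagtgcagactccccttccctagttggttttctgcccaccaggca
Lpin1 (chr12:16610967-16611216, minus strand): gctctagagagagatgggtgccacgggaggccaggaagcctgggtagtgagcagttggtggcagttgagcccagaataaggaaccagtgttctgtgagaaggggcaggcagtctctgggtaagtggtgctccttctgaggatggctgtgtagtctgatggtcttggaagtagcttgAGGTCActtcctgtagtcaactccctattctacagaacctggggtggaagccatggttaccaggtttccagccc
Agpat2 (chr2:26604418-26604667, minus strand): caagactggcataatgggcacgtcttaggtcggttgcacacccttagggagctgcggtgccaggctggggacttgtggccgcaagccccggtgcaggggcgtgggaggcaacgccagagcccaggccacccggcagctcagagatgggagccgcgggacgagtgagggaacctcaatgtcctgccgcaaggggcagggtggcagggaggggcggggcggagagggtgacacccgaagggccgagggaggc

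The Slc25a1 window held an E-box and a CCAAT box, read on the other strand as ATTGG, and the Lpin1 window held a half-site. The Cfd and Agpat2 windows held none of the 4. An E-box stood in 3 of the 27 matched genes (Slc25a1, Lipe and Mgll), against 6.05% of the 27025 promoters searched, and a half-site in 6 of the 27, against 13.8%. The CCAAT box stood in 9 of the 27 (34.5% of all promoters) and the C/EBP motif in Lep and Plin1 (9.55%). Such matches describe the letters of these windows and not binding.

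Condition by condition, the line difference was not even. All 11 of the genes above had positive estimates in each of the 4 conditions, as did 4 more (Lpl, Acsl1, Dgat1 and Pnpla2), 15 in all; 0 were negative in all 4 and 20 were mixed. At 20 months without drug, 3 of the 35 genes were higher and 1 lower in the CYP19A1 line, where 5.27% of all genes passed (2.12% higher and 3.16% lower). At 18 months, under tamoxifen and under letrozole, 0 of the 35 passed by limma, where 1.36%, 1.01% and 0.906% of all genes did; 7, 4 and 2 of the 35 had an unadjusted p under 0.05. Estimates were positive for 31, 31, 32 and 18 of the 35 genes at 18 months, untreated, under tamoxifen and under letrozole.

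In the untreated comparison Mlxipl was at 15.8, 5.47 and 16.1 TPM in the Esr1 line and 27.2, 22.6 and 25.8 TPM in the CYP19A1 line (log2 difference 1.09 ± 0.31, limma adjusted p = 0.044). Slc2a4 was at 47.4, 18.8 and 47.7 TPM against 74.0, 62.4 and 78.3 TPM (1.00 ± 0.25, adjusted p = 0.023). Gpam was at 53.5, 17.1 and 35.1 TPM against 58.5, 59.9 and 88.2 TPM (1.06 ± 0.30, 0.043). None of these 3 overlapped between the groups, and in each the lowest of the Esr1 libraries was replicate 2, the one rich in ribosomal RNA. Plin2 went the other way, at 227, 532 and 273 TPM against 139, 126 and 109 TPM (-1.36 ± 0.29, adjusted p = 0.0096), and that same library was its highest. Without Esr1 untreated replicate 2, or without CYP19A1 untreated replicate 3, 0 of the 35 genes passed in this comparison. The share of all genes that passed in those fits is not given. Without Esr1 untreated replicate 1, 10 of the 35 were higher and 1 lower, where 6.57% and 3.47% of all genes were. The calls of Mlxipl and Gpam were lost without any 1 of 11 and of 13 of the 24 libraries. Of 5 lymphocyte markers, Cd3d and Cd3e, subunits of the T cell receptor complex, were lower in the CYP19A1 line, by 1.10 ± 0.24 and 1.14 ± 0.30 (adjusted p = 0.011 and 0.030). Their part was not tested. Both were low: Cd3d ran from 0.45 to 3.63 TPM in the 12 Esr1 libraries and from 0.35 to 4.87 TPM in the 12 CYP19A1 libraries. Cd3e ran from 0.96 to 5.29 and from 0.84 to 7.4 TPM. The 1 TPM added before the log weighs on such values, here and below. Without the 3 libraries that stood apart, Slc2a4 gave 0.57 (adjusted p = 0.045), Plin2 -0.999 (0.016), and Mlxipl and Gpam 0.62 and 0.63 (0.096 and 0.11).

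Few of the genes passed between the ages. Induction was also longer in the 20-month mice, and of the groups compared only theirs bore the PLA tag. Age, induction time and that tag therefore cannot be told apart. Differences with age, here and below, are differences between these groups. In the CYP19A1 line at 20 against 18 months, 0 of the 35 were higher and 2 lower, where 9.45% of all genes passed (3.01% higher and 6.45% lower). The median log2 difference of the 35 was -0.376 and that of all genes -0.225. Fabp5, a fatty acid carrier also found in epithelium and macrophages, was at 76.9, 98.8 and 78.5 TPM at 18 months and 45.3, 33.5 and 26.0 TPM at 20 months, without overlap (-1.28 ± 0.39, limma adjusted p = 0.045). Its estimate is uncertain in part, since the table also lists a processed pseudogene, Fabp5l2. Plin2 was at 279, 353 and 235 TPM and then 139, 126 and 109 TPM, again without overlap (-1.19 ± 0.29, 0.021). With the libraries rescaled by median ratios, which brings the median of all genes to within 0.02 of 0, the values became -1.02 for Fabp5 (adjusted p = 0.12) and -0.93 for Plin2 (0.10). Leaving out CYP19A1 18-month replicate 1 or 2, or CYP19A1 untreated replicate 2 or 3, also left 0 of the 35. The share of all genes in those fits is not given. The call of Fabp5 was lost without any 1 of 14 of the 24 libraries. Muscle marker sums were 23.1 to 6843 TPM in the 18-month group and 18388 to 31651 TPM in the 20-month group, and the sums of 7 epithelium markers 344 to 582 and 217 to 328 TPM. Of 12 muscle markers Mb and Myh1 passed, at 4.31 ± 1.11 and 4.56 ± 1.31 (adjusted p = 0.027 and 0.038), and of 5 lymphocyte markers Cd3d and Cd3e, at -1.09 ± 0.24 and -1.19 ± 0.30 (0.015 and 0.023). The part of these cell types in the differences was not tested.

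In the Esr1 line 0 of the 35 genes passed between 18 and 20 months by limma, where 0.00517% of all genes did, and 6 had an unadjusted p under 0.05. Of the 35 estimates 30 were negative, with a median of -0.613, against -0.136 over all genes. Adipoq, at 1102, 456 and 386 TPM at 18 months and 654, 111 and 316 TPM at 20 months, shows how wide the replicates were: the first 18-month value came from the library nearly free of muscle RNA and the second 20-month value from the one rich in ribosomal RNA. Plin2 gave 0.02 ± 0.29 there (adjusted p = 0.99). The age differences of the lines did not differ by the interaction test for any of the 35 genes (0 passed by limma, 1 with an unadjusted p under 0.05; 0.00517% of all genes passed), and Plin2, the gene with that p, gave -1.21 ± 0.41 (adjusted p = 0.45).

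Letrozole in the Esr1 line was the drug comparison with calls. Against untreated glands 3 of the 35 genes were higher and 1 lower, where 8.65% of all genes passed (2.85% higher and 5.81% lower), and 17 had an unadjusted p under 0.05. The median log2 difference of the 35 was 0.803 and that of all genes -0.006. The 3 letrozole libraries were close to each other, with Adipoq at 616, 712 and 739 TPM, Lipe at 229, 239 and 274 TPM and Lep at 202, 204 and 277 TPM, while the untreated libraries were spread over 654, 111 and 316 TPM, 222, 36.1 and 109 TPM and 146, 10.5 and 42.4 TPM. For Adipoq the groups therefore overlapped, and its difference of 1.27 ± 0.55 did not pass (adjusted p = 0.15).

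Slc2a4 rose from 47.4, 18.8 and 47.7 TPM untreated to 75.9, 71.5 and 68.7 TPM under letrozole, without overlap (1.02 ± 0.25, limma adjusted p = 0.017). Gpam rose from 53.5, 17.1 and 35.1 TPM to 79.1, 67.8 and 69.0 TPM (1.15 ± 0.30, adjusted p = 0.023), and Plin4, a perilipin of nascent droplets in adipocytes and muscle, from 276, 47.0 and 165 TPM to 411, 452 and 451 TPM (1.75 ± 0.51, 0.038). Plin2 fell from 227, 532 and 273 TPM to 99.9, 106 and 118 TPM (-1.57 ± 0.29, 0.0046). None of these 4 overlapped between the groups; over all 35 genes, 14 lay wholly above and 3 wholly below the untreated group, where 11.2% and 16.5% of all genes did. Pck1 at 1.85 ± 0.59 (adjusted p = 0.058), Lpin1 at 0.65 ± 0.22 (0.069) and Slc25a1 at -0.95 ± 0.33 (0.078) did not pass.

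The untreated group carried much of the uncertainty. Without Esr1 untreated replicate 1, which was near the letrozole libraries in most genes (Adipoq 654 TPM), 17 of the 35 genes were higher and 1 lower, where 11.4% and 6.35% of all genes were. Without replicate 2 only Plin2 passed (3.89% of all genes did), as it also did when letrozole replicate 1 or 2 was left out or when only the compared groups were fitted. Without the 3 libraries that stood apart, Slc2a4 gave 0.59 (adjusted p = 0.031), Gpam 0.71 (0.057), Plin4 1.03 (0.052) and Plin2 -1.20 (0.0066). Muscle marker sums were 26788 to 29650.5 TPM under letrozole and 5790 to 18626 TPM untreated, without overlap. Muscle also expresses Slc2a4 and Plin4. With a muscle marker score in the fit, Slc2a4 gave 1.01 (limma adjusted p = 0.013) and Plin4 1.94 (0.013). Muscle level and letrozole ran together in these groups, so that fit cannot separate them. The part of muscle in these differences was not tested. On the scale relative to 4 adipocyte genes, Slc2a4 and Gpam turned to -0.34 and -0.21 (limma adjusted p = 0.56 and 0.71). On that scale neither rose more than the mean of those 4 genes. The scale shifts all genes of a library alike, and the median of all genes moved to -1.36.

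In the CYP19A1 line letrozole gave 0 of 35 by limma, where 0.0207% of all genes passed, and 1 had an unadjusted p under 0.05. The median of the 35 was 0.008. Letrozole replicate 3 differed from its group, with Lep at 203, 156 and 7.35 TPM, Adipoq at 867, 631 and 196 TPM and Pnpla3, a nutrient-responsive lipid droplet enzyme, at 74.7, 73.4 and 6.39 TPM over replicates 1 to 3. The difference between the lines in the effect of letrozole did not pass for any of the 35 genes (0 by limma, 7 with an unadjusted p under 0.05; 0% of all genes passed). Its largest estimates were -2.35 ± 0.84 for Pck1 (adjusted p = 0.34), -2.34 ± 1.48 for Lep (0.54) and -1.73 ± 0.72 for Plin4 (0.38).

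**Figure D4:**
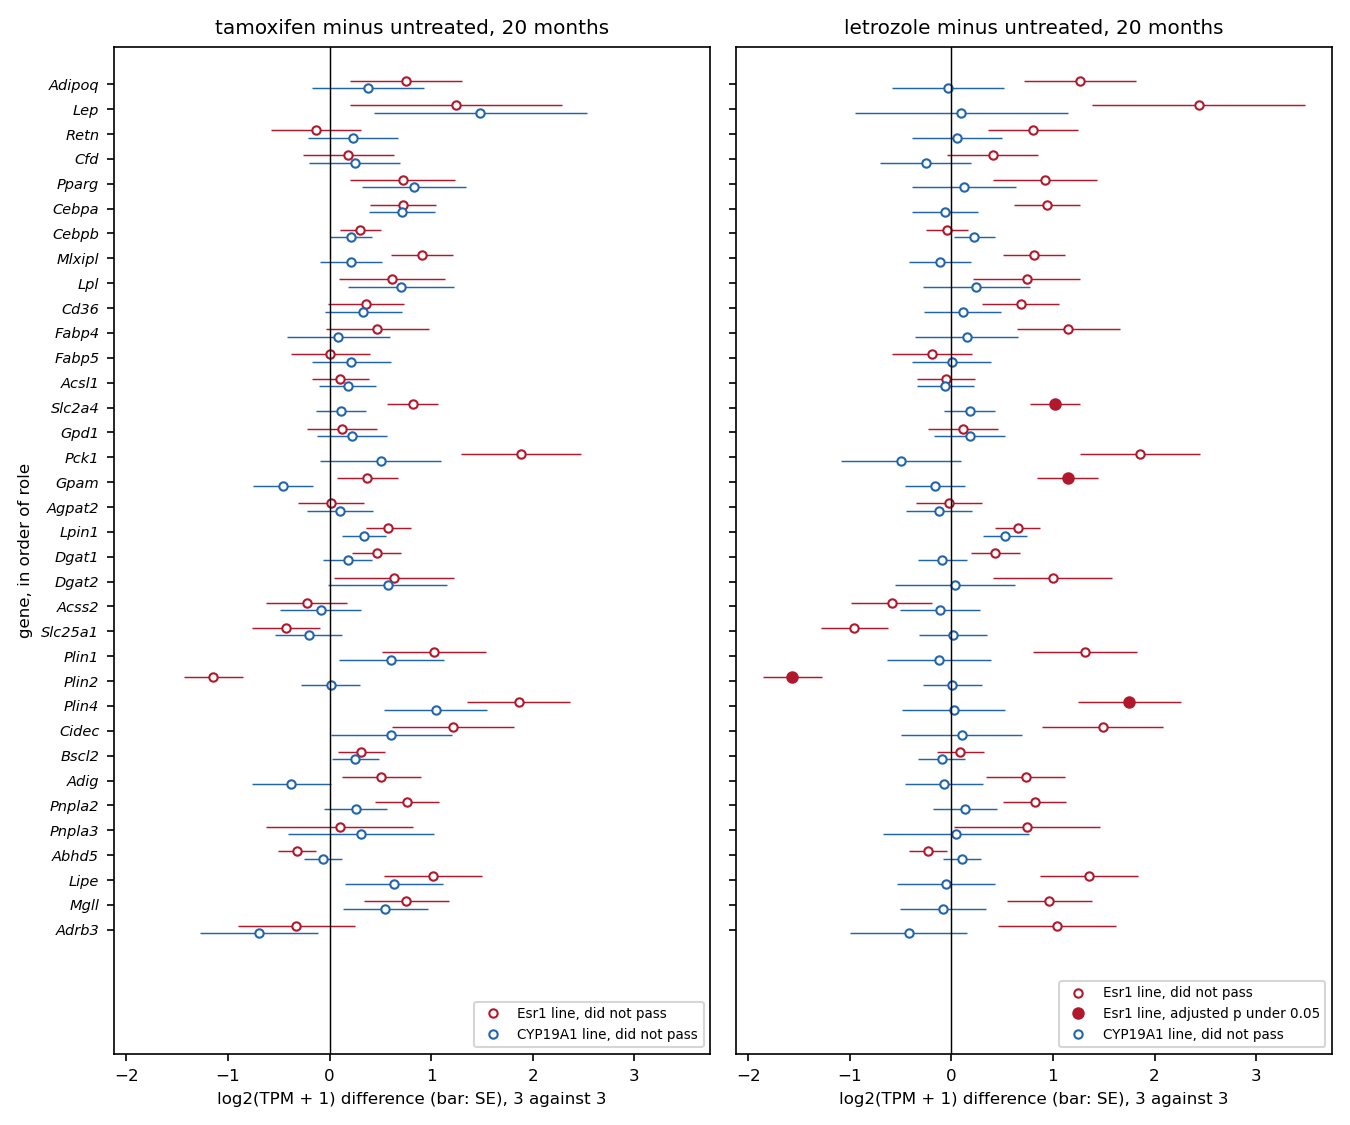
Differences of each drug from untreated glands at 20 months for the 35 genes, as log2(TPM + 1) with standard errors (3 against 3 libraries), in the Esr1 line (red) and the CYP19A1 line (blue); filled points passed the limma threshold. The 4 filled points are Slc2a4, Gpam, Plin4 and Plin2 under letrozole in the Esr1 line, and in each line both drugs are compared with the same untreated libraries.

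Tamoxifen moved 0 of the 35 genes past the limma threshold in the Esr1 line, where 1.55% of all genes passed. Of the 35, 9 had an unadjusted p under 0.05, a cut whose share over all genes is not given. Plin2 stood just outside, at 112, 216 and 125 TPM against 227, 532 and 273 TPM untreated (-1.15 ± 0.29, adjusted p = 0.0504), without overlap. Plin4 was at 316, 421 and 789 TPM against 276, 47.0 and 165 TPM (1.86 ± 0.51, 0.063), and Pck1 at 163, 244 and 549.6 TPM against 135, 33.6 and 92.9 TPM (1.88 ± 0.59, 0.10), both also without overlap. With median-ratio scaling 3 of the 35 passed, 2 higher and 1 lower, where 9.82% of all genes did, and without Esr1 untreated replicate 1, 6 passed, where 6.15% of all genes did. Of 5 lymphocyte markers Cd3d was lower, by 1.13 ± 0.24 (adjusted p = 0.027). In the CYP19A1 line 0 of the 35 passed by limma, where 0.16% of all genes did, and 1 had an unadjusted p under 0.05. There Plin4 was at 585, 607 and 536 TPM under tamoxifen and 252, 256 and 335 TPM untreated, the groups not overlapping (1.04 ± 0.51, adjusted p rounding to 1). The difference between the lines in the effect of tamoxifen passed for 0 of the 35 by limma (1 with an unadjusted p under 0.05; 0% of all genes passed).

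Adrb3, the β3-adrenergic receptor through which catecholamines start lipolysis in mouse adipocytes, varied widely within some groups. Under tamoxifen it was at 48.5, 10.8 and 11.3 TPM in the Esr1 line and 33.8, 34.5 and 32.0 TPM in the CYP19A1 line, against 50.8, 47.5 and 48.3 TPM and 58.1, 68.3 and 16.6 TPM under letrozole. Untreated glands held 43.8, 8.27 and 33.2 TPM in the Esr1 line, overlapping the tamoxifen values, and 54.7, 46.0 and 64.7 TPM in the CYP19A1 line, where all 3 tamoxifen values lay below them. In the Esr1 tamoxifen group Retn, at 154, 61.9 and 65.6 TPM, and Cfd, at 1333, 535 and 415 TPM, were likewise highest in replicate 1. The Adrb3 differences did not pass (tamoxifen minus untreated -0.33 ± 0.58 and -0.69 ± 0.58 in the Esr1 and CYP19A1 lines, limma adjusted p = 0.81 and rounding to 1). Directly compared, tamoxifen and letrozole differed in 0 of the 35 genes by limma in either line, where 0.129% and 0.248% of all genes passed; 3 and 1 of the 35 had an unadjusted p under 0.05.

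Plin2 had the most negative correlation with the other members (-0.36), over 24 libraries that include Esr1 untreated replicate 2, its highest. Its group means were 330 ± 106 (SD, n = 3) TPM at 18 months, 344 ± 164 untreated, 151 ± 56.9 under tamoxifen and 108 ± 9.35 under letrozole in the Esr1 line, and 289 ± 59.2, 125 ± 14.8, 125 ± 7.03 and 126 ± 21.2 in the same order in the CYP19A1 line. The 18-month groups and the Esr1 untreated group were thus high and the other 5 groups low, and the only library of the low groups to reach the high ones was Esr1 tamoxifen replicate 2, at 216.1 TPM beside 215.6 TPM in Esr1 18-month replicate 1. Summed epithelium markers were 369 to 483 TPM in the Esr1 untreated group and 103 to 169 TPM in the Esr1 letrozole group. Of these 7 markers 5 passed as lower under letrozole, Epcam, Krt8, Krt18, Cldn3 and Cdh1, from -1.52 ± 0.40 for Krt18 to -2.26 ± 0.43 for Cldn3 (limma adjusted p = 0.023 and 0.0053). In the Esr1 line the drug differences of Plin2 thus ran in the direction of these epithelial genes and opposite to Plin1, Plin4 and Cidec. In the CYP19A1 line Plin2 did not move with them under letrozole: all 7 epithelium markers had negative letrozole estimates (0 passed by limma, 4 with an unadjusted p under 0.05) and their sums were 217 to 328 TPM untreated and 54.9 to 236 TPM under letrozole, while Plin2 averaged 125 and 126 TPM. The part of the epithelium in the Plin2 values was not tested. The difference between the lines in the letrozole effect on Plin2 was 1.57 ± 0.41 and did not pass (adjusted p = 0.24).

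**Figure D5:**
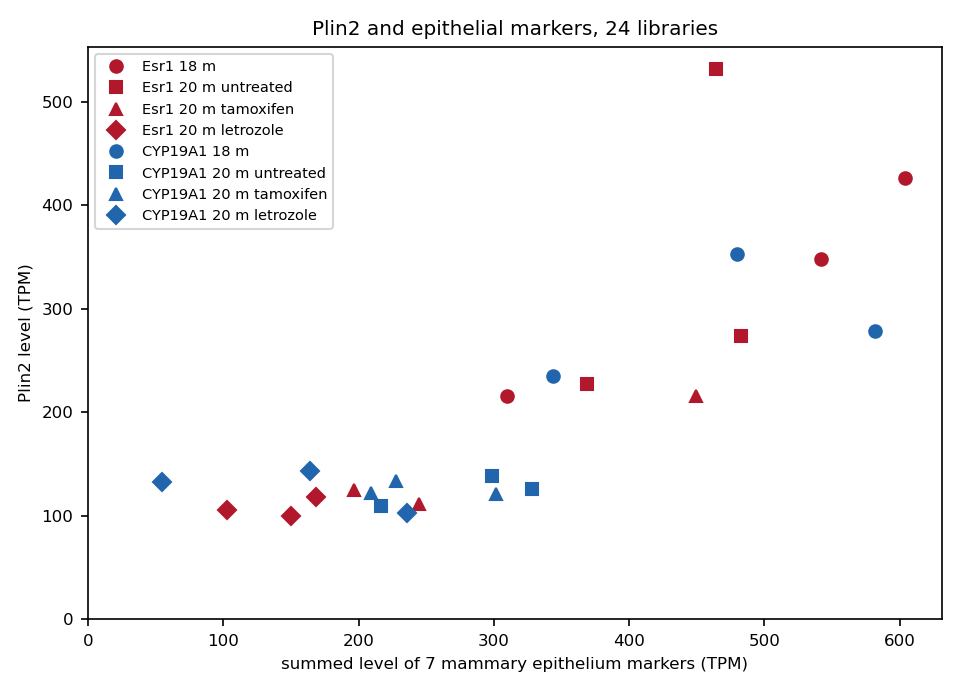
Plin2 level (TPM) against the summed level of 7 mammary epithelium markers (TPM) in the 24 libraries, with symbols for the 8 groups (Esr1 line red, CYP19A1 line blue). The libraries of the 18-month and Esr1 untreated groups hold 216 to 532 TPM of Plin2 and at least 310.1 TPM of epithelium markers, while the Esr1 letrozole libraries lie at 103 to 169 TPM of epithelium markers and 99.9 to 118 TPM of Plin2. The CYP19A1 untreated libraries reach 328 TPM of epithelium markers with 109 to 139 TPM of Plin2, and the CYP19A1 letrozole libraries spread from 54.9 to 236 TPM of epithelium markers at a similar Plin2 level.

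A wider list of 46 adipocyte pathway genes that are no members was examined beside the 35. On average 3 were higher and 0 lower in the CYP19A1 line, where 3.96% and 3.31% of all genes were. The 3 were Plin5 by 0.56 ± 0.16, a perilipin of oxidative tissues, Adipor2 by 0.56 ± 0.16, an adiponectin receptor, and Klf15 by 0.39 ± 0.12, a factor of adipocyte and muscle metabolism (limma adjusted p = 0.030, 0.030 and 0.042). At 20 months without drug Plin5 and Adipor2 also passed, at 1.39 ± 0.31 and 1.12 ± 0.31 (0.013 and 0.041). With letrozole in the Esr1 line 4 rose and 3 fell, where 2.85% and 5.81% of all genes did. Those with the smallest p included Srebf1, the SREBP-1 factor of fatty acid synthesis, at -1.26 ± 0.27, Klf15 at 1.01 ± 0.23, Lmf1, needed for lipase maturation, at -0.58 ± 0.15, and Cavin1, a caveolar coat protein, at 1.40 ± 0.40 (adjusted p = 0.010, 0.013, 0.020 and 0.037). Srebf1 was at 89.1, 116 and 99.5 TPM untreated and 40.2, 40.0 and 44.5 TPM under letrozole, without overlap.

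With age in the CYP19A1 line 3 of these 46 genes rose and 3 fell, where 3.01% and 6.45% of all genes did. Fitm1, a fat storage-inducing protein that is mainly a muscle gene, rose by 2.97 ± 0.75 and Plin5 by 1.09 ± 0.31 (limma adjusted p = 0.025 and 0.035), in the group whose muscle marker sums were higher. Gpihbp1, which carries lipoprotein lipase across capillary endothelium, fell by 0.88 ± 0.26 on the log2 scale (0.039), Srebf1 by 0.89 ± 0.27 (0.044) and Plin3, a perilipin found in most cells, by 0.50 ± 0.15 (0.048). In the other 12 comparisons 0 of the 46 passed by limma; from 0 to 18 had an unadjusted p under 0.05, the 18 being with tamoxifen in the Esr1 line. Of 7 brown adipocyte markers, Ppargc1a, a coactivator that muscle also expresses, rose by 0.71 ± 0.21 with letrozole in the Esr1 line (0.041), and 0 passed in the other 15 comparisons (0 to 3 with an unadjusted p under 0.05). Of the 6 adipocyte precursor markers that could be tested, 0 passed by limma in any comparison (0 to 3 with an unadjusted p under 0.05). The same held for 5 macrophage markers (0 to 2) and 5 fibroblast markers (0 to 4). Of the 5 lymphocyte markers, beside the calls given above between the untreated lines, with age in the CYP19A1 line and with tamoxifen in the Esr1 line, Cd3d fell with letrozole in the Esr1 line by 1.07 ± 0.24 and Cd3e by 1.02 ± 0.30 on the log2 scale (0.012 and 0.038). In the other 12 comparisons 0 of the 5 passed by limma (0 to 2 with an unadjusted p under 0.05).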

How the data were processed

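Strand-specific libraries of mammary gland total RNA depleted of ribosomal RNA were sequenced, per the labels' protocols. The authors deposited TPM values per gene for 24 libraries, with 2 decimals. Per the submitters' processing notes the build was mm10 and the tools were RSEM 1.3.1, STAR 2.7.9a, Trim Galore 0.6.5 and FastQC 0.11.9, without the role of each; for the gene annotation, the sources used here give nothing. Read depth cannot be recovered from TPM, so it is unknown and counting intervals are absent. A TPM value is a share of the library, so an abundant RNA lowers every other value; 14410 to 17684 genes reached 1 TPM per library.

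From these values, log2(TPM + 1) was fitted with limma 3.58.1 in R 4.3.3 (eBayes with trend and robust). The 19325 genes tested had 1 TPM or more in 3 or more samples. The 8 groups entered 1 fit of 24 libraries and 16 comparisons were taken from it, with Benjamini-Hochberg adjustment over all 19325 genes within each and a threshold of 0.05. Where comparisons use the same untreated libraries, they are not independent. Samples within a group are biological replicates with different animal numbers, per the labels. The fit was tested on simulated data. The 35 genes and the other lists (46 pathway genes, markers of adipocyte precursors, brown adipocytes, skeletal muscle, mammary epithelium, endothelium, macrophages, lymphocytes and fibroblasts) were chosen with earlier results of these data known. Any of the 35 could be named; of the other lists, genes past the threshold were named, at most 5 per comparison by smallest p; 1 such gene is not reported here. Alternatives were another pseudocount, no filter, 2 other scalings, a muscle covariate, a replicate block, fits of the compared groups only and each library left out in turn. Chosen after seeing the data were a fit without the 3 libraries that stood apart, a scale relative to 4 adipocyte genes, and 1 RNA model in the rescaling without abundant RNAs. Promoters came from RefSeq on GRCm38.p6 and were searched for 4 motifs on both strands.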

Additional observations from a re-analysis of the deposited data

How the results depend on the processing

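Counts of the 35 genes past the threshold depended most on the Esr1 untreated libraries. The cause was not tested except where named. For most of these alternatives the share of all genes is not given, so whether other genes gained or lost calls alike is not shown. Averaged between the lines, 11 became 7 with no filter on low values (more genes tested), 0 relative to 4 adipocyte genes, and 7 to 12 with single libraries left out. Between the untreated lines, 4 became 2 with no filter, 7 with the muscle covariate, 0 with the compared groups only (fewer samples), 2 without the 3 libraries that stood apart, 1 relative to 4 adipocyte genes, and 0 to 11 with single libraries left out. For letrozole in the Esr1 line, 4 became 2 with no filter, 9 with median-ratio scaling, 7 rescaled without abundant RNAs and muscle markers, 8 with the muscle covariate, 1 with the compared groups only, and 1 to 18 with single libraries left out. Relative to 4 adipocyte genes 9 passed, all lower, but there 9936 of all 19325 genes passed; on that scale Slc2a4 and Gpam reversed to -0.34 and -0.21. For tamoxifen in the Esr1 line, 0 became 3 with median-ratio scaling, 4 rescaled without abundant RNAs and muscle markers, 3 with the muscle covariate, 1 relative to 4 adipocyte genes, and 0 to 6 with single libraries left out; in the CYP19A1 line 0 became 1 with the compared groups only. For age in the CYP19A1 line, 2 became 1 with a pseudocount of 0.1, 1 with no filter, 0 with median-ratio scaling, 0 rescaled, 0 relative to 4 adipocyte genes, and 0 to 2 with single libraries left out. Between the lines under letrozole, 0 became 1 with median-ratio scaling, 1 rescaled and 1 without the 3 libraries that stood apart, and 0 to 1 with single libraries left out; at 18 months the range was also 0 to 1. The other comparisons stayed at 0 under each alternative run.

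Replicate numbers did not pair the libraries: the deviations of same-numbered libraries from their group means correlated by 0.0014 on average (from -0.41 to 0.30, 84 pairs), and animals differed. With the replicate number as a block, 1 gene passed for age in the CYP19A1 line and 1 for tamoxifen in the Esr1 line, 10 passed in the average between the lines, 4 between the untreated lines and 5 with letrozole in the Esr1 line. Over all alternatives of the 21 named calls, 523 values kept direction and threshold, 157 kept direction only and 2 reversed. Depth is unknown, so what it limits could not be given.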
